A study of Mus musculus with 6 samples.

Results

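The genes described here are the early response factors Egr1, Egr2, Egr3, Nr4a1, Nr4a2 and Nr4a3 together with Nab1 and Nab2, the corepressors of the Egr proteins. They were taken by gene symbol, and all 8 are among the 24411 genes listed in the files. RNA was sequenced from macrophages that grew out of bone marrow monocytes of C57BL/6 mice, with 3 libraries from monocytes sorted as LFA1-hi Itgam-hi and 3 from monocytes sorted as LFA1-lo Itgam-lo. Both groups were kept for 7 days with 20 ng/ml M-CSF, the growth factor of macrophages, in medium with 10% serum that was changed on day 4. They carried no other treatment or allele that the labels name. Whether the replicates of either sort stem from different mice or dishes is not labelled, so p-values here measure the spread between these libraries, which may be technical. The groups are called LFA1-hi and LFA1-lo macrophages after the sort.

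Egr proteins are zinc finger transcription factors whose genes are switched on within minutes when growth factors activate the ERK kinase pathway and, through it, the serum response factor Srf and its Elk partners. Nab1 and Nab2 bind Egr proteins and turn them from activators into repressors, and Nab2 is itself induced by Egr factors, which closes a feedback loop. Nr4a proteins are orphan nuclear receptors that act without a known classical ligand, and their genes respond to cyclic AMP, calcium and growth factor signals. In mice, Egr1 and Egr2 with Nab2 favour the macrophage over the neutrophil fate of myeloid progenitors, and Nr4a1 is needed for the Ly6C-low subset of monocytes.

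Libraries held 15191262 to 17614509 expected counts in LFA1-hi and 16404922 to 17115544 in LFA1-lo macrophages. LFA1-lo replicate 2 stood apart from the other libraries of its group, with a chi-square per degree of freedom of 34.2 and 48.8 against replicates 1 and 3, which had 13.7 between them. All 9 macrophage markers were detected, with a summed level of 14060 to 16364 CPM (expected counts scaled to a common library total) in LFA1-hi and 17919 to 23222 CPM in LFA1-lo libraries. The 7 neutrophil markers used here summed to 3.69 to 5.49 CPM in LFA1-hi and 11.9 to 41.8 CPM in LFA1-lo libraries. Markers of dendritic cells (Flt3 and Ccr7 at 0), T and NK cells (Cd3e, Cd3d, Cd3g and Ncr1 at 0) and mast cells and basophils (Cpa3, Fcer1a and Ms4a2 at 0) summed to at most 1.53 CPM in any library. Markers of B cells (Pax5 at 0) summed to at most 3.70 CPM and those of progenitors to at most 5.21 CPM. Erythroid and megakaryocyte markers summed to 258 to 290 CPM in LFA1-hi and 224 to 300.2 CPM in LFA1-lo, almost all of it Pf4, with Hbb-bs and Gp9 at 0. Markers of stroma and endothelium summed to 21.6 to 26.0 CPM in LFA1-hi and 12.3 to 18.9 CPM in LFA1-lo, mostly Kdr. A list of 10 cell cycle genes summed to 2790 to 3052 CPM in LFA1-hi and 1147 to 1403 CPM in LFA1-lo libraries. The part of the neutrophil, stromal and cell cycle genes in the results below was not tested.

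The 8 genes were chosen by values of this same comparison, since their difference in counts between the groups was in view when they were picked. Their levels and fold changes are therefore given as a description, with standard errors but without p-values. All 8 passed the filter on low counts. For 6 of them (Egr1, Egr2, Egr3, Nr4a1, Nr4a3 and Nab2) the LFA1-hi level was lower past an adjusted p of 0.05, where 15.6% of all tested genes were lower and 31.7% differed in either direction. The LFA1-hi libraries all lay below the LFA1-lo libraries for 7 of the 8, where this was so for 22.9% of tested genes, and all above them for none of the 8, where this was so for 24.8%. Nothing is read from either count, since the choice of genes used this comparison. In bulk RNA, fewer cells of a type and less RNA per cell cannot be told apart.

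The 3 Egr genes were lower in LFA1-hi macrophages, by about 4-fold for Egr2, about 6-fold for Egr1 and about 19-fold for Egr3. Egr2, also known as Krox20 (GRCm38 chromosome 10, 67534469 to 67542188), stood at 29.6, 34.6 and 47.8 CPM in LFA1-hi replicates 1, 2 and 3, against 133, 225 and 83.6 CPM in LFA1-lo replicates 1, 2 and 3. The groups did not overlap, and the LFA1-lo libraries spread over a 2.69-fold range, with replicate 2 the highest. Its log2 fold change was −1.98 (SE 0.38, 95% interval −2.90 to −1.05, n = 3 each), and −1.54 without LFA1-lo replicate 2. Egr1, also known as Zif268 or Krox24 and located on chromosome 18, had 9.56, 11.7 and 12.6 CPM in LFA1-hi libraries and 63.9, 82.8 and 45.2 CPM in LFA1-lo libraries. The lowest LFA1-lo library thus lay above the highest LFA1-hi library, and LFA1-lo replicate 2 was again the highest and replicate 3 the lowest. The log2 fold change of Egr1 was −2.50 (SE 0.23, 95% interval −3.02 to −1.99).

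Egr3, which with Egr2 restrains T cell activation in mice (chromosome 14, 70077317 to 70082613), had 14, 8 and 28 counts in LFA1-hi libraries and 380, 294 and 254 counts in LFA1-lo libraries. In CPM this was 0.783, 0.509 and 1.57 in LFA1-hi and 22.7, 18.8 and 14.9 in LFA1-lo macrophages. Here LFA1-lo replicate 1, not replicate 2, was the highest. The log2 fold change was −4.27 (SE 0.34, 95% interval −5.04 to −3.50). The remaining family gene, Egr4, had 0 counts in each of the 6 libraries.

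Nab1 and Nab2 parted from each other. Nab2, the corepressor that Egr factors induce (chromosome 10, 127660918 to 127666703), was at 43.5, 43.8 and 50.7 CPM in LFA1-hi libraries and 97.4, 112 and 72.2 CPM in LFA1-lo libraries. All LFA1-hi values lay below all LFA1-lo values, and the LFA1-lo libraries ranked as they did for Egr1 and Egr2. Its log2 fold change was −1.03 (SE 0.15, 95% interval −1.38 to −0.68). Nab1, the paralogue with more even expression across tissues (chromosome 1, 52455849 to 52500712), was at 80.6, 83.2 and 84.6 CPM in LFA1-hi and 88.1, 86.4 and 86.7 CPM in LFA1-lo libraries. These values do not overlap either, but they lie within a narrow span, with a log2 fold change of −0.07 (SE 0.075, 95% interval −0.24 to 0.10). Nab2 overlaps its neighbours Stat6 (70 bases in RefSeq), Nemp1 (1668 bases on the other strand in GENCODE, listed as Tmem194 in the files), and the antisense gene Gm16229 (1646 bases, not used here), and since the use of read strand is not stated, reads there cannot be told apart. Stat6, the signalling factor downstream of interleukin-4, was at 222 ± 11.7 CPM in LFA1-hi and 269.6 ± 7.75 CPM in LFA1-lo (SD, n = 3 each). Tmem194, an inner nuclear membrane protein gene, was at 33.8 ± 1.47 CPM in LFA1-hi and 16.3 ± 3.26 CPM in LFA1-lo. Stat6 thus went in the same direction as Nab2 (log2 fold change −0.28) and Tmem194 in the opposite one. The part of shared reads in the Nab2 level was not tested. Egr2 and Nr4a2 also overlap RefSeq genes (Gm32255 over 1712 bases and LOC105244150 over 670 bases) that were not used here.

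**Figure D1:**
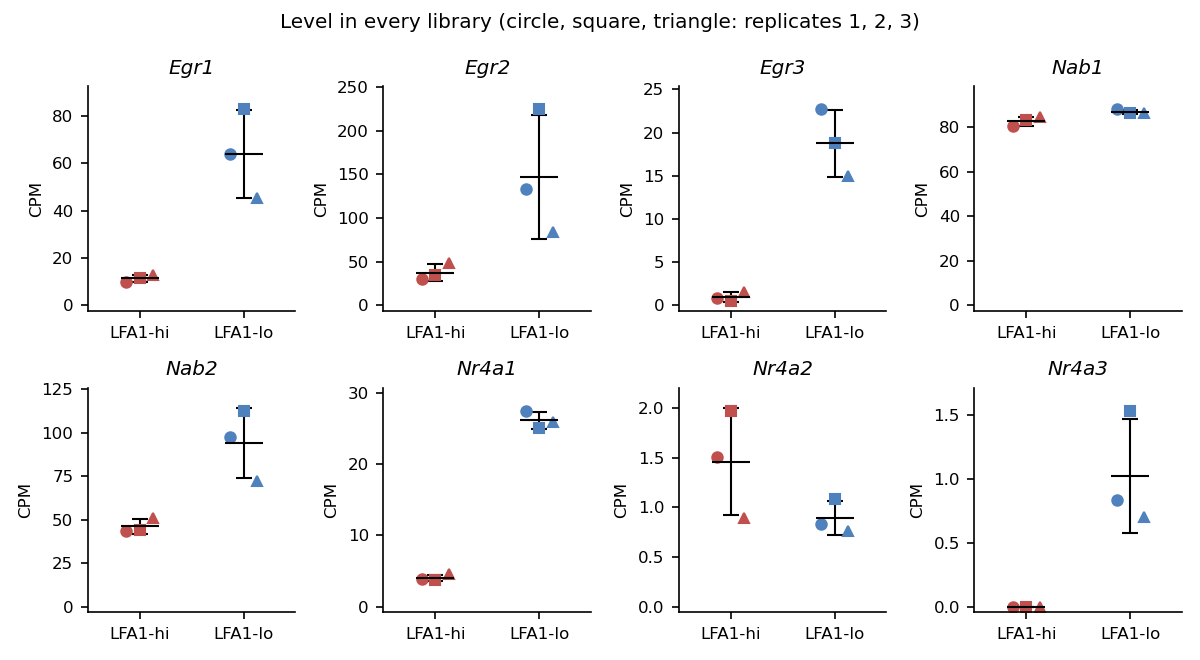
CPM (y axis, one scale per gene) of each of the 8 genes in the 3 LFA1-hi libraries (red) and the 3 LFA1-lo libraries (blue), with the mean and SD in black. The LFA1-hi points lie far below the LFA1-lo points for the Egr genes and Nr4a1, close to them for Nab1 (80.6 to 84.6 against 86.4 to 88.1 CPM) and partly above them for Nr4a2.

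Of the Nr4a genes, Nr4a1 and Nr4a3 were lower in LFA1-hi macrophages and Nr4a2 was not. Nr4a1, also called Nur77 (chromosome 15, 101253902 to 101274795), stood at 3.80, 3.69 and 4.54 CPM in LFA1-hi libraries and 27.5, 25.02 and 25.9 CPM in LFA1-lo libraries. The groups were far apart and each was tight, with a coefficient of variation of 11.4% in LFA1-hi and 4.72% in LFA1-lo. This differs from Egr2, whose coefficient of variation in LFA1-lo was 48.6%. The log2 fold change of Nr4a1 was −2.70 (SE 0.15, 95% interval −3.03 to −2.37).

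Nr4a3, or Nor1 (chromosome 4, 48045078 to 48086447), had 0 counts in each LFA1-hi library and 14, 24 and 12 counts in LFA1-lo libraries. It passed the filter on low counts through the LFA1-lo libraries alone. Taking 3 counts over the LFA1-hi group as the floor, it was at least 17.3-fold lower in LFA1-hi, and at least 11.3-fold lower without LFA1-hi replicate 1 or replicate 3. Nr4a2, or Nurr1, which in microglia restrains inflammatory genes together with the corepressor CoREST (chromosome 2, 57106830 to 57124003), had 27, 31 and 16 counts in LFA1-hi and 14, 17 and 13 counts in LFA1-lo libraries. In CPM it was at 1.51, 1.97 and 0.896 in LFA1-hi and 0.836, 1.085 and 0.764 in LFA1-lo libraries. The groups overlapped, since LFA1-hi replicate 3 lay below LFA1-lo replicate 2. Its log2 fold change was 0.70 (SE 0.47), with a 95% interval of −0.35 to 1.75 that takes in no difference as well as a rise of about 3-fold, so no difference was resolved with these counts and this spread.

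**Figure D2:**
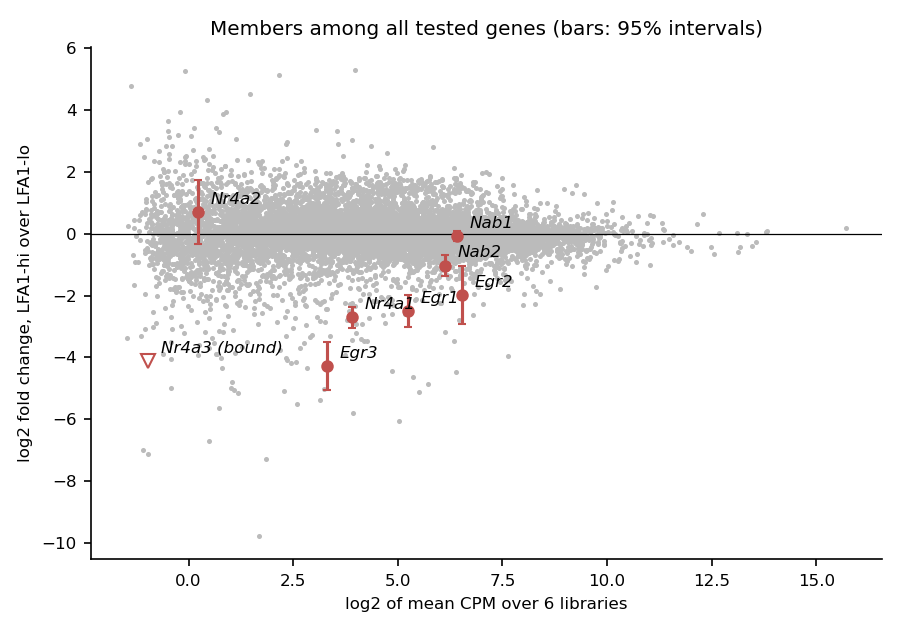
The log2 fold change of LFA1-hi over LFA1-lo (y axis) against the log2 of mean CPM (x axis) for all 11692 tested genes (grey), with Egr, Nr4a and Nab genes in red and their 95% intervals. The open triangle is the bound for Nr4a3, which had 0 counts in LFA1-hi. Egr2, Egr1, Nr4a1 and Egr3 lie at −1.98 to −4.27, Nab2 at −1.03 and Nab1 at −0.07.

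Levels of different genes were compared per length, in TPM, which divides counts by transcript length before scaling each library to the same total. In LFA1-hi macrophages the order was Nab2 (33.9 to 39.9 TPM), Nab1 (28.9 to 31.2), Egr2 (18.8 to 30.5), Egr1 (5.85 to 7.73), Nr4a1 (2.94 to 3.52), Nr4a2 (0.56 to 1.28), Egr3 (0.26 to 0.77) and Nr4a3, listed at 0. The ranges of Nab1 and Egr2 overlapped, as did those of Nr4a2 and Egr3, and the other 5 neighbouring pairs did not. In LFA1-lo macrophages Egr2 came first (55.4 to 143 TPM), then Nab2 (58.4 to 87.8), Egr1 (28.8 to 50.9), Nab1 (31.1 to 33.2), Nr4a1 (19.4 to 22.3), Egr3 (7.39 to 11.3), Nr4a3 (0.38 to 1.02) and Nr4a2 (0.49 to 0.68). Here Egr2 and Nab2 overlapped, as did Egr1 and Nab1, and Nr4a3 and Nr4a2. So Nab2 came first in LFA1-hi macrophages, followed by Nab1 and Egr2 with overlapping ranges, while Egr2 and Nab2 overlapped at the top in LFA1-lo macrophages.

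The summed TPM of the Egr genes relative to that of the Nab genes was 0.399, 0.464 and 0.555 in LFA1-hi libraries, against 1.26, 1.71 and 1.01 in LFA1-lo libraries. Egr transcripts were thus fewer than Nab transcripts in every LFA1-hi library and more in every LFA1-lo library, narrowly so in replicate 3. The ratio of Egr1 to Nab2 was steady within groups, at 0.173 to 0.213 in LFA1-hi and 0.494 to 0.579 in LFA1-lo, although Egr1 itself varied 1.83-fold among the LFA1-lo libraries. Nab2 over Nab1 was 1.171, 1.123 and 1.311 in LFA1-hi and 2.37, 2.82 and 1.80 in LFA1-lo libraries, with no overlap.

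The makeup of each family gives another view of the same levels. Egr2 made up 76.1% ± 1.84 of Egr TPM in LFA1-hi and 64.7% ± 5.26 in LFA1-lo (SD, n = 3 each), and Egr3 1.43% ± 0.566 in LFA1-hi and 6.83% ± 2.11 in LFA1-lo. Nr4a1 held 75.8%, 70.02% and 86.3% of Nr4a TPM in LFA1-hi libraries and 95.5%, 91.9% and 96.0% in LFA1-lo libraries. The rest of the LFA1-hi sum was Nr4a2, which rests on 16 to 31 counts per library. These shares follow from the levels above and are no further evidence of a difference.

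**Figure D3:**
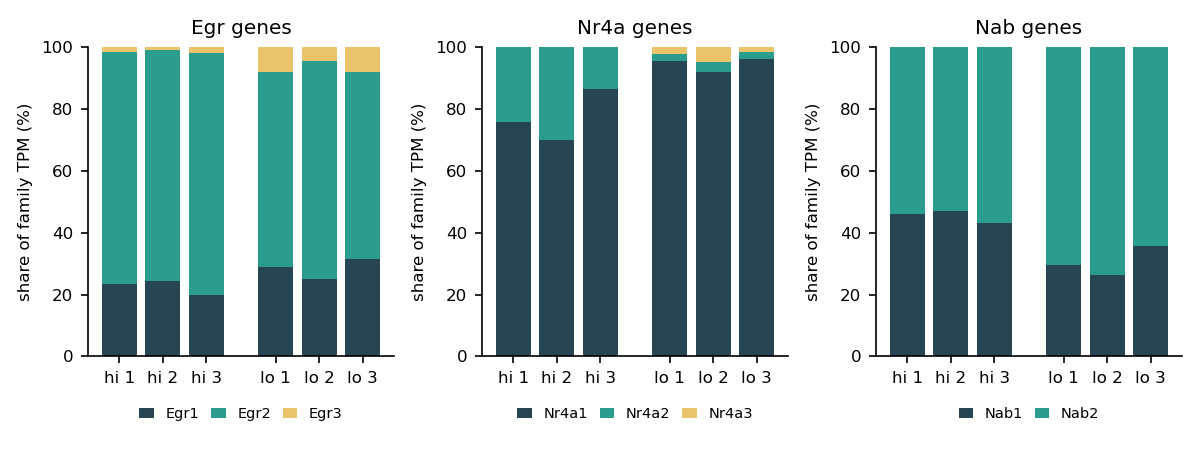
Share of each family's summed TPM (y axis, percent) taken by each gene in every library, with LFA1-hi libraries (hi 1 to hi 3) left of LFA1-lo libraries (lo 1 to lo 3). Egr2 is the main Egr transcript in all 6 libraries, at 60.5% to 78.2%, and Nr4a2 reaches 13.7% to 30.0% of Nr4a TPM in LFA1-hi against 2.26% to 3.22% in LFA1-lo.

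The files also give each gene's transcript length, averaged over its isoforms by their estimated abundance, which says whether isoform use differed and was not used in choosing the genes. Egr1, Egr2, Nr4a1 and Nab1 have 1 listed transcript each, and Nr4a2 kept a length of 3026 bases in all libraries. For Nab2, with 2 transcripts, the length was 2464, 2503 and 2446 bases in LFA1-hi and 2486, 2460 and 2468 bases in LFA1-lo libraries, a difference of −0.4 bases of the means and less than the spread between replicates (exact permutation test, two-sided, p = 1, adjusted over 2 tests p = 1). For Egr3, with 3 transcripts, it was 3872, 3799 and 3799 bases in LFA1-hi and 3889, 3899 and 3889 bases in LFA1-lo libraries. These groups did not overlap, with a difference of the means of −69.1 bases and an exact two-sided permutation p = 0.1, which is the smallest that 3 against 3 libraries allow (adjusted over 2 tests p = 0.2). The LFA1-hi values rest on 8 to 28 counts each. For Nr4a3 no length can be compared, as it had no counts in LFA1-hi.

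Sequence before the start site was read for 6 of the 8 genes, from RefSeq's GRCm38.p6 promoter table. Egr3 has no entry there, and Egr1 was not used here. The window is the 250 bases before the start site, and where a gene had several start sites the one nearest to the GENCODE transcript that matches the files was taken. Motifs were searched on both strands, and each is given with its share of all 32851 windows and then of the 11322 windows of tested genes. They were the cyclic AMP response element TGACGTCA (1.55% and 2.7%), its core TGACG (17.8% and 27.0%), the Egr site GCGNGGGCG (4.70% and 8.63%) and the Nr4a monomer site AAAGGTCA (1.34% and 0.88%). The others were the GC box GGGCGG (32.7% and 57.7%), the Ets site CCGGAAG (6.91% and 14.2%) and the CArG box, which Srf binds (1.47% and 1.08%). The core lies inside the full element, and a GC box can overlap an Egr site. The sequences of 4 windows are shown because the Egr2 window holds a CArG box and because each Nr4a window holds TGACG cores. Capitals mark the TGACG core (CGTCA on the other strand), the Egr site and the CArG box.
Egr2, chr10:67537619-67537868, plus strand, in an intron of longer GENCODE transcripts of the gene: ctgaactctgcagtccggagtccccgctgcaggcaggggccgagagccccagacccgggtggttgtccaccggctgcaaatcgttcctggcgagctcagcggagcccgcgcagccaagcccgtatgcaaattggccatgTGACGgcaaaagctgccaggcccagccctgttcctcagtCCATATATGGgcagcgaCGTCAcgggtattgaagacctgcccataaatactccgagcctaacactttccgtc
Nr4a1, chr15:101266596-101266845, plus strand, in an intron of longer GENCODE transcripts of the gene: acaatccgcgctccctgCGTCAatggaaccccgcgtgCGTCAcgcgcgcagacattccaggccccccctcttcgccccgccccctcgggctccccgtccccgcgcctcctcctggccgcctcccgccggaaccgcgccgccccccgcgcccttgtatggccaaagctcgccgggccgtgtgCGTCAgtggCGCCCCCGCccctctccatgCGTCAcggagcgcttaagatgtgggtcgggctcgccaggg
Nr4a3, chr4:48045055-48045152, plus strand, the 98 bases of its window that lie before the first exon in GENCODE, which starts 152 bases upstream of the RefSeq start: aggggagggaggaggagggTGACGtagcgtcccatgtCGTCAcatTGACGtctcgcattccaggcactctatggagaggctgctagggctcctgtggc
Nr4a2, chr2:57124004-57124253, minus strand, just before the gene: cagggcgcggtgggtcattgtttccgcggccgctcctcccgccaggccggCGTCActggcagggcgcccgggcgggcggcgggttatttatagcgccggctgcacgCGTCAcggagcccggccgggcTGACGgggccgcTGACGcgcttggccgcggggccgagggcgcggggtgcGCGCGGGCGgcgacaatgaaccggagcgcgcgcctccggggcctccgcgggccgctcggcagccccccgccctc

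The Egr2 window held a CArG box at 72 to 63 bases before the start, between TGACG cores. Each Nr4a window held 4 TGACG cores, at different distances from the start, and 1 of those of Nr4a3 lay in the part not printed. Counts of 4 or more were found in 45 of all windows (0.14%) and in 0.34% of the windows of tested genes, a number set after the matches were seen. Nr4a1 and Nr4a2 each had 1 Egr site as well. The Nr4a2 window thus matched that of Nr4a1 in its counts of cores and Egr sites. Whether these letters bear on the level of either gene was not tested. The RefSeq gene span of Nr4a3 begins at 48045078, inside the stretch printed for it. The RefSeq start given with the Nr4a3 window is the site where that window ends, further downstream. Nab1 had 1 core and 3 Egr sites, all within the 231 bases of its window that GENCODE places in an exon. The whole Nab1 window lies inside its RefSeq gene span, which ends at 52500712. Nab2 held neither a core nor an Egr site in its window, which shows only that these letters are not there. No window held a full cyclic AMP response element, an Nr4a site or an Ets site. The windows held from 61.6% G and C in Egr2 up to 80.8% in Nab1, and matches to GC-rich motifs are more likely where these bases are frequent. The G and C content of windows at large was not measured.

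**Figure D4:**
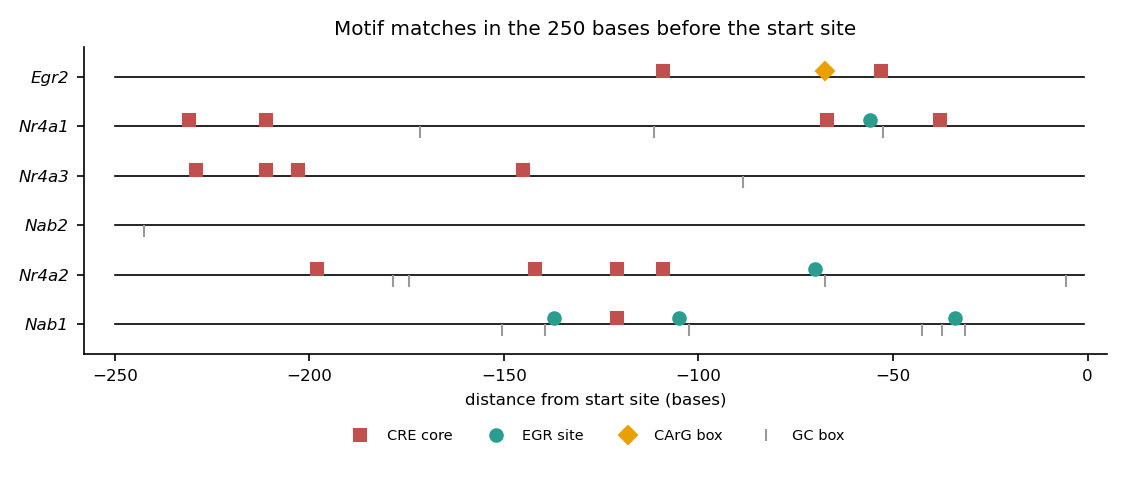
Positions of motif matches (symbols) in the 250 bases before the start site of 6 genes (x axis, distance in bases), with Egr2, Nr4a1, Nr4a3 and Nab2 above Nr4a2 and Nab1. TGACG cores number 4 in each Nr4a gene, and a CArG box is found in Egr2 alone of the 6. All matches of Nab1, and those of Nr4a3 within 152 bases of the start, lie in a GENCODE exon.

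The tested genes whose centred log2 CPM profile over the 6 libraries lay nearest to that of a member were listed as a description, with no test. Nearest to Egr1 were Fhod3, Rgs11 and Abca1, the exporter of cholesterol to apolipoproteins, at a root mean square distance of 0.193 to 0.214 on the log2 scale. Nearest to Egr2 were Vegfa, an angiogenic growth factor, Cdkn2b, an inhibitor of cyclin-dependent kinases, and Stac2 (0.172 to 0.18). Nr4a1 was nearest to Mturn, Clec4n, which encodes dectin-2, and C77080 (0.214 to 0.244). Egr3 was nearest to Slco2b1, Plxdc2 and Map1a (0.289 to 0.409), and Nab2 to Apbb2, Myo1e and Pld3 (0.043 to 0.072). Nr4a3 was nearest to Ciita, the coactivator of class II antigen presentation genes, then to Arl5c and Gprc5c (0.111 to 0.275). With 0 counts in LFA1-hi, the Nr4a3 profile there is set by the prior count of 2 added before the logarithm, so these 3 distances depend on it. Nab1 and Nr4a2 were nearest to genes with small differences (Mga, Rfwd2 and Cdk12 at 0.02 to 0.022 for Nab1, and Them6, Sssca1 and Armcx1 at 0.092 to 0.154 for Nr4a2).

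Most of the listed kinases and factors that switch on Egr and Nr4a genes did not pass the test. This list and those below were chosen with earlier results of these data known, so their counts describe the lists and test nothing. Of 26 tested genes of the ERK pathway and the Srf and Creb factors, 1 rose and 2 fell in LFA1-hi macrophages (median log2 fold change −0.09), where over all tested genes 16.1% rose and 15.6% fell with a median of −0.005. Elk4, an Srf partner, fell to 52.9, 56.6 and 56.0 CPM in LFA1-hi libraries, against 76.6, 80.2 and 76.2 CPM in LFA1-lo libraries (log2 fold change −0.49, SE 0.08, edgeR adjusted p = 0.00172). Grb2, an adaptor downstream of growth factor receptors, fell by 0.44 on the log2 scale (adjusted p = 0.00143). Srf itself was at 47.3, 48.6 and 52.4 CPM in LFA1-hi and 59.1, 57.7 and 49.6 CPM in LFA1-lo, and Creb1 at 77.1, 76.2 and 72.0 CPM in LFA1-hi and 85.2, 86.1 and 88.9 CPM in LFA1-lo. Neither passed the test (adjusted p = 0.231 and 0.0683). These 2 were singled out after their values were seen. Csf1r, the receptor kinase for M-CSF, was listed among the macrophage markers and not here; it fell by 1.02 on the log2 scale (edgeR adjusted p = 0.000155), and it too was named after its values were seen. Without LFA1-lo replicate 2 the counts were 4 rising and 6 falling, and without LFA1-lo replicate 1 2 rose.

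Other immediate early genes moved both ways. Of 31 tested (34 listed), 14 fell and 4 rose (median −0.54), where 15.6% of all tested genes fell and 16.1% rose. Zfp36, which destroys cytokine mRNAs, fell to 92.4, 84.5 and 88.7 CPM in LFA1-hi libraries, against 259, 298 and 229 CPM in LFA1-lo libraries (log2 fold change −1.56, SE 0.10, edgeR adjusted p = 2.47e-05). Dusp5, a phosphatase that switches off ERK, had 3.58, 2.93 and 2.46 CPM in LFA1-hi and 10.2, 24.95 and 8.58 CPM in LFA1-lo libraries (log2 fold change −2.28, SE 0.43, but −1.65 without LFA1-lo replicate 2, adjusted p = 0.00508). Btg2, which restrains proliferation (−1.59, adjusted p = 0.000294), and Fos, a subunit of AP-1 (−1.44, adjusted p = 0.00136), also fell. The 4 that rose, named after their values were seen, were Dusp6, another ERK phosphatase (1.11, adjusted p = 0.000403), the Kruppel-like factor Klf2 (0.61, adjusted p = 0.00841), Myc (0.51, adjusted p = 0.0399) and Jun (0.31, adjusted p = 0.0129). Dusp6 was at 183, 175 and 166 CPM in LFA1-hi and 95.3, 63.9 and 83.3 CPM in LFA1-lo libraries. With LFA1-hi replicate 1 or 2 left out, 2 rose.

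Cofactors of the Egr, Nab and Nr4a proteins changed by small amounts. Of 17 tested, 3 rose and 4 fell (median 0.02), where 16.1% of all tested genes rose and 15.6% fell. Rbbp7 (0.65, SE 0.09, edgeR adjusted p = 0.000921) and Rbbp4 (0.46, adjusted p = 0.00171), histone-binding subunits of the NuRD complex that Nab2 recruits, rose. Gatad2b, another NuRD subunit, fell by 0.47 on the log2 scale (adjusted p = 0.00402). Chd4, the NuRD remodeller that binds Nab2, named after its values were seen, fell to 407, 407 and 424 CPM in LFA1-hi, against 549, 532 and 521 CPM in LFA1-lo libraries (−0.37, adjusted p = 0.00323). Rxrb, a nuclear receptor whose family pairs with Nr4a1 and Nr4a2, fell by 0.49 (adjusted p = 0.0414). That call was lost when any one library other than LFA1-lo replicate 2 was left out and under 5 other alternatives (adjusted p 0.000157 to 0.145 over all). Without LFA1-lo replicate 2, 5 of the cofactors rose.

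Of 17 tested genes reported as Egr targets in other cells, 7 fell and 1 rose (median −0.26). Over all tested genes 15.6% fell and 16.1% rose. Thbs1, the matrix protein thrombospondin-1, fell to 9.17, 15.9 and 15.3 CPM in LFA1-hi libraries, against 107, 180.0 and 161 CPM in LFA1-lo libraries (log2 fold change −3.47, SE 0.27, edgeR adjusted p = 0.000155). Vegfa fell to 18.8, 30.2 and 29.3 CPM in LFA1-hi, against 83.7, 157 and 59.0 CPM in LFA1-lo libraries (−1.93, SE 0.39, adjusted p = 0.0121), and like Egr2 it was highest in LFA1-lo replicate 2. The platelet-derived growth factor genes Pdgfb (−1.29, adjusted p = 0.000556) and Pdgfa (−1.18, adjusted p = 0.0113) fell too, though Pdgfa missed the threshold without LFA1-hi replicate 1 (adjusted p = 0.0592, within a range of 0.000446 to 0.0592 over alternatives). The gene that rose was Cdk5r1, a kinase activator (0.97, adjusted p = 0.0238), named after its values were seen. Leaving out replicate 2 or 3 of LFA1-hi or replicate 3 of LFA1-lo left 0 that rose, and leaving out replicate 2 of LFA1-lo gave 2.

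**Figure D5:**
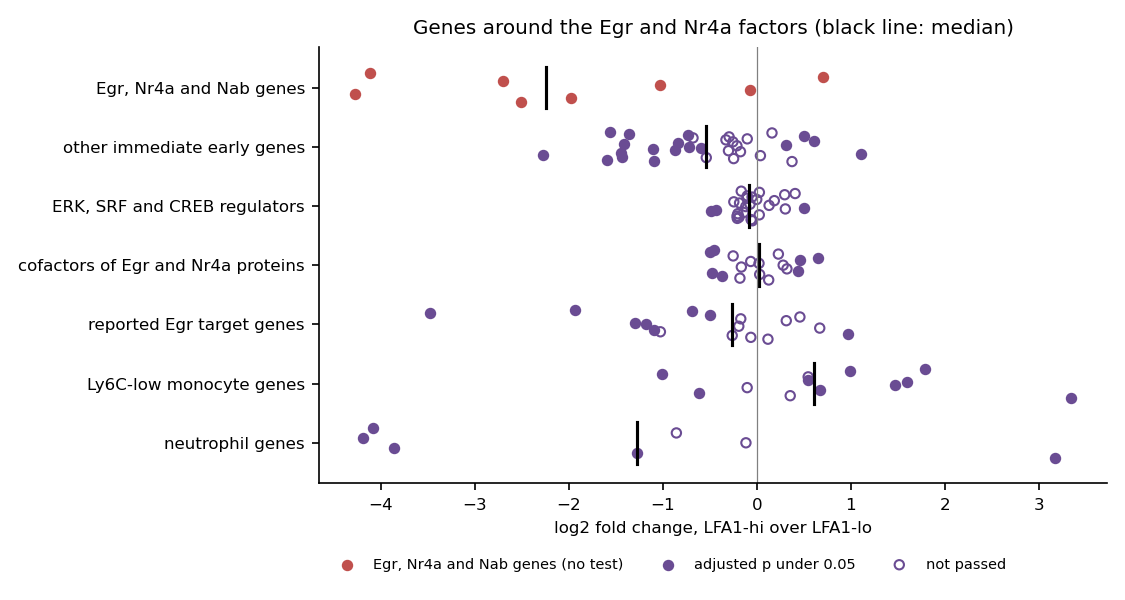
The log2 fold change of LFA1-hi over LFA1-lo (x axis) for each tested gene of the lists (rows). Filled purple points passed an adjusted p of 0.05, open ones did not, black lines are medians, red points are the Egr, Nr4a and Nab genes, and Nr4a3 is drawn at its bound. The median of the red points is −2.24. Medians of the purple rows run from −1.28 for neutrophil genes to 0.61 for Ly6C-low monocyte genes, while the regulators of ERK, Srf and Creb cluster near 0.

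Genes of the Ly6C-low monocyte, the subset for which mice need Nr4a1, were higher more often than lower. Whether their levels are tied to that of Nr4a1 was not tested. Of 12 tested, 7 rose and 2 fell in LFA1-hi macrophages (median 0.61), where 16.1% of all tested genes rose and 15.6% fell. Cd300e, an activating receptor, rose by 3.34 (adjusted p = 0.000101) and Treml4, a receptor that amplifies Toll-like receptor signals, rose to 16.3, 11.5 and 10.7 CPM in LFA1-hi, against 3.64, 3.64 and 3.88 CPM in LFA1-lo libraries (1.79, SE 0.21, edgeR adjusted p = 0.000357). Cx3cr1, the fractalkine receptor, was at 69.3, 65.1 and 54.1 CPM in LFA1-hi and 33.5, 12.3 and 22.4 CPM in LFA1-lo libraries (1.47, SE 0.32, adjusted p = 0.0132). Its call was lost without LFA1-lo replicate 3 (adjusted p = 0.0621, within a range of 2.19e-06 to 0.0621). Eno3, a muscle-type enolase, rose by 1.60 (adjusted p = 0.0156), a call lost without LFA1-hi replicate 2 or replicate 3 (range over alternatives 0.00211 to 0.073). The factor Pou2f2 fell by 1.01 (adjusted p = 0.000502) and the tetraspanin gene Cd9 by 0.61 (adjusted p = 0.0212), both named after their values were seen. Leaving out replicate 2 of LFA1-hi left 3 that rose, and leaving out replicate 1 of either group or replicate 2 of LFA1-hi left 1 that fell.

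Neutrophil genes, which Egr and Nab2 hold down in mouse progenitors, were mostly low in both groups, and 7 of the 15 listed had enough counts to be tested. Of these, 4 fell and 1 rose (median −1.28), where 15.6% of all tested genes fell and 16.1% rose. The exceptions in level, named after their values were seen, were Csf3r, the receptor of G-CSF (19.1 to 24.99 CPM in LFA1-hi and 49.6 to 59.5 CPM in LFA1-lo, log2 fold change −1.28, edgeR adjusted p = 0.000131), and the collagenase gene Mmp8 (80.1 to 104 CPM in LFA1-hi and 48.8 to 135 CPM in LFA1-lo, adjusted p = 0.837). Gfi1, the neutrophil factor that opposes Egr2, singled out after its values were seen, had 0 CPM in all LFA1-hi libraries and in LFA1-lo replicates 2 and 3, and 0.179 CPM in LFA1-lo replicate 1. S100a9, a calcium-binding alarm protein, stood at 0.615, 0.382 and 0.672 CPM in LFA1-hi and 3.40, 11.8 and 13.6 CPM in LFA1-lo libraries (−4.08, SE 0.57, edgeR adjusted p = 0.00117). The granule protein genes Ngp (−4.19, adjusted p = 0.00485, or −4.81 without LFA1-hi replicate 3) and Ltf (−3.86, adjusted p = 0.00786) also fell. S100a9, Ngp and Ltf are also among the neutrophil markers summed above. Over the 3 LFA1-hi libraries they had 29, 29 and 14 counts, so their fold changes rest on few counts there. Ltf was at −5.90 without LFA1-hi replicate 3 and at −3.27 without LFA1-hi replicate 1. The call of Ngp was lost with limma voom (adjusted p = 0.0571, within a range of 0.000245 to 0.0571). Cebpe, a factor of granule formation, rose to 1.73, 2.36 and 1.57 CPM in LFA1-hi, against 0.179, 0.191 and 0.235 CPM in LFA1-lo libraries (3.17, SE 0.51, adjusted p = 0.00174). Over the 3 LFA1-lo libraries Cebpe had 10 counts, so its fold change too rests on few counts.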

How the data were processed

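Per the labels' protocols, column-purified RNA of 6 libraries was depleted of ribosomal RNA and sequenced on a NextSeq2000. Tools named in the submitters' processing notes are bcl2fastq, Trim Galore and RSEM, with GRCm38 as build. Their versions, the aligner and whether strand was used were not given in the sources used here. Deposited files hold RSEM expected counts (not normalized), TPM and FPKM (scaled by effective length and library size) and transcript lengths in bases, per the file headers. From them, expected counts were rounded, filtered with filterByExpr (minimum count 10, 11692 genes left), scaled by TMM (factors 0.956 to 1.034) and tested as LFA1-hi minus LFA1-lo by edgeR's robust quasi-likelihood test (edgeR 4.0.16, R 4.3.3), adjusting p-values by Benjamini-Hochberg over the 11692 genes and calling those under 0.05. The spread was estimated over both groups together (biological coefficient of variation 15.02%). CPM uses TMM-scaled totals. A count of 3 corresponds to 0.170 to 0.198 CPM, and floors cover counting error only. The procedure was tested on simulated data. Same-numbered libraries did not deviate together (correlations 0.037, 0.018 and −0.072), so the fit has no block. Members and lists were chosen with earlier results of these data known. Named in the text are the 8 genes, up to 4 called genes of each list with the largest change and a mean CPM of at least 1, and the 3 nearest profiles of each member; other genes are marked. Some genes that fall under this rule or the marker lists are not reported here. The cell cycle list is given as a summed level. The neutrophil gene Ly6g was not used here. Alternatives, 16 for each gene, were RLE or total-count scaling, no filter, a filter of 10 CPM in at least 3 libraries, DESeq2 1.42.0, limma 3.58.1 (voom, or log2 of TPM + 0.1 or TPM + 1), no ribosomal RNA gene, each library left out, and a replicate block. Level order was also taken from FPKM. Tables and figures were made with pandas 2.3.3 and matplotlib 3.10.9.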

Additional observations from a re-analysis of the deposited data

How the results depend on the processing

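The log2 fold changes of Egr1 (−2.70 to −2.28), Egr2 (−2.26 to −1.54), Egr3 (−4.83 to −2.80), Nr4a1 (−2.80 to −2.40) and Nab2 (−1.19 to −0.88) kept their sign under all 16 alternatives, as did those of Nab1 (−0.10 to −0.01) and Nr4a2 (0.28 to 0.96, not fitted with at least 10 CPM in 3 libraries). That filter also removed Nr4a3, and its fitted value depends on the added constant. On log2(TPM + 1) the change of Egr3 shrinks because the constant exceeds its LFA1-hi level. Without 1 library, 1169 to 2589 of all tested genes were higher and 1099 to 2443 lower in LFA1-hi, 6 of the 8 genes were lower and 0 higher, 1 to 4 regulators were higher and 2 to 6 lower, 2 to 5 other early genes and 3 to 5 cofactors were higher, 0 to 2 Egr targets were higher, and 3 to 8 Ly6C-low genes were higher and 1 or 2 lower. Nothing is read from the count of the 8 genes, since they were chosen by this comparison. In the main fit 15.6% of all tested genes were lower and 16.1% higher in LFA1-hi. With library totals only, 3 regulators and 5 cofactors were higher. With at least 10 CPM in 3 libraries, 0 Egr targets and 0 neutrophil genes were higher and 1 neutrophil gene lower, as fewer genes were tested. With the replicate block 1692 genes were higher and 1561 lower, and 0 Egr targets were higher, where the numbers pair nothing by the labels. Where not stated, the cause was not tested. Counts of Nr4a2 (13 to 31 per library) and Nr4a3 (0 to 24) are small, and a library with 0 counts allows up to 3 (0.170 to 0.198 CPM).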
